A study of Mus musculus with 15 samples.

Results

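Mapk12, which encodes p38 gamma, was measured together with 6 other genes of the p38 MAP kinase pathway in 5 related mouse mammary epithelial cell lines. The other genes are Mapk11, Mapk13 and Mapk14, which encode p38 beta, p38 delta and p38 alpha, their activating kinases Map2k3 and Map2k6, and the downstream kinase Mapkapk2. The group was chosen by the level of Mapk12, which had been seen to lie about 20-fold higher in every line passaged through mice than in the lines that were not. All 7 genes were on the array, as 7 of 18193 measured genes and as 15 probe sets, the groups of short probes that each report 1 transcript region. Because its levels chose it, Mapk12 is described without a test throughout.

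Signals were deposited for 15 Affymetrix arrays, 3 for each line. NMuMG is a wild-type, non-tumorigenic line from normal mouse mammary gland that was not selected in mice. E1KD was made from NMuMG by silencing hnRNP E1, which binds RNA and is the product of Pcbp1; it is tumorigenic and was not itself selected in mice. M1P, L1P and L2P also carry the silencing and descend from E1KD through NOD/SCID mice, M1P from a mammary fat pad tumour, L1P from the lungs of mice that carried fat pad tumours and L2P from lung after the next passage. The culture medium was the same for all 5. Each line is a single line, no line with a control vector was analysed here, and nothing in the labels tells whether its 3 arrays are 3 cultures. P-values therefore measure the spread between arrays, which may be technical, and silencing cannot be told apart from other differences between E1KD and NMuMG.

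The p38 kinases are stress-activated protein kinases. Stress and cytokine signals reach them through MAP3 kinases, which phosphorylate the MAP2 kinases MKK3 and MKK6, the products of Map2k3 and Map2k6, and these phosphorylate p38 on a threonine and a tyrosine of its activation loop. Active p38 phosphorylates transcription factors and kinases such as MK2, the product of Mapkapk2, which stabilises and promotes translation of many inflammatory messages, and dual-specificity phosphatases switch p38 off again. p38 alpha is widely expressed, whereas p38 gamma is best known from skeletal muscle and binds proteins with PDZ domains through its carboxyl terminus. An array measures messages and not kinase activity.

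The signals were on a log2 scale, so a difference of 1 is a 2-fold difference, and they ranged from 1.53 to 14.68 over all probe sets. Correlations between arrays within a line were 0.979 to 0.996 in 4 lines and 0.93 to 0.978 in M1P. M1P array 1 also had the lowest upper quartile of signal, 6.33, against 6.64 to 6.86 on the other arrays. The members' M1P results, the counts of pathway genes and of neighbours around Mapk12, and the main pathway genes named in M1P are therefore also given without M1P arrays 1 and 2. Earlier results of these data had set these arrays apart from M1P array 3. Counts of the cell type markers and of the other MAP kinases were not redone without them. M1P is then 1 array, which is assumed to vary like the arrays of the other lines. Pcbp1 lay at 12.57 to 12.76 in NMuMG and at 7.95 to 10.09 in the 4 silenced lines, so every array matched its label in this respect. The epithelial keratins Krt8 (13.63 to 14.22) and Krt18 (13.42 to 14.11) and E-cadherin, Cdh1 (10.15 to 11.58), were high on all 15 arrays. Among the 8 mammary epithelial markers Epcam (4.95 to 5.80), Cldn3 (4.64 to 5.71) and Cldn4 (3.36 to 3.98) were low in every line, and Krt7 was at a mean of 10.27 in NMuMG and 4.17 to 4.81 in the other lines. These are bulk samples, in which fewer cells with a message and less message per cell cannot be told apart.

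Mapk12 and Mapk11 are neighbours on chromosome 15. In the RefSeq annotation of GRCm38.p6, Mapk12 spans chr15:89130584-89141577 and Mapk11 spans chr15:89142482-89149606, both on the minus strand, so Mapk11 lies upstream of Mapk12 and 904 bases apart from it. Mapk14 (chr17:28691342-28748405) and Mapk13 (chr17:28769286-28778704) form the other pair, 20880 bases apart on chromosome 17. Map2k3 (chr11:60932054-60952811) and Map2k6 (chr11:110399102-110525522) lie far apart on chromosome 11, and Mapkapk2 (chr1:131053700-131097871) lies on chromosome 1. All 7 genes are protein-coding.

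The promoter windows of Mapk12 and Mapk11 are shown because these adjacent genes had different patterns across the lines. Each window holds 250 bases before and 50 bases after an annotated transcript start, credited to RefSeq with GRCm38.p6, and is printed 5′ to 3′ on the minus strand. That of Mapk12 is chr15:89140654-89140953, which lies inside the annotated gene and ends 624 bases short of its 5′ boundary, and that of Mapk11 is chr15:89149557-89149856. Capitals mark the matches to 7 motifs searched on both strands.
Mapk12: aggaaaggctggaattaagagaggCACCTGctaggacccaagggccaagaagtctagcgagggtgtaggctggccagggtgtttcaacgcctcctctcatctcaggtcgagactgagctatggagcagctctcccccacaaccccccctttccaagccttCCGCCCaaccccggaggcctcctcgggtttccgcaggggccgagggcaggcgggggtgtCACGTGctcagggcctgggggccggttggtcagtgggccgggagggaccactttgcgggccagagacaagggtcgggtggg
Mapk11: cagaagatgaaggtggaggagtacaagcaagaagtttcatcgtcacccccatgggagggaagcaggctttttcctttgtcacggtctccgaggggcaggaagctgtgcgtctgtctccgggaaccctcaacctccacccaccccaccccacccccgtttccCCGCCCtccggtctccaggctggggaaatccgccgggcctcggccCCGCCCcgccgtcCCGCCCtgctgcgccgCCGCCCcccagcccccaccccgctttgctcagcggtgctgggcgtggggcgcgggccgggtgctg

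The motifs were the TATA box (TATAAA), the CCAAT box (CCAAT), the GC box (GGGCGG), the E-boxes CACGTG and CACCTG, the AP-1 element (TGACTCA) and the cAMP response element (TGACGTCA). In the Mapk12 window the CACCTG E-box started at position -226, 1 GC box, read as CCGCCC, at -90 and the CACGTG E-box at -31, counted from the transcript start. The Mapk11 window held 4 GC boxes, at -89, -44, -31 and -15, and none of the other motifs. Of 32851 promoter windows of this length, 35.7% held a GC box, 20.2% the CACCTG E-box and 7.15% the CACGTG E-box. The shares were 13.6% for the TATA box, 37.4% for the CCAAT box, 5.2% for the AP-1 element and 1.79% for the cAMP response element. Mapk12 had 65.3% G and C and 14 CG dinucleotides in its window, and Mapk11 had 69.7% and 24, against a median of 52.7% and 7 over all windows. A share of 36.3% of windows had at least as many CG dinucleotides as that of Mapk12, and 20.0% at least as many as that of Mapk11. These matches describe the letters of the windows and not sites in use.

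Mapk12 was low in NMuMG and E1KD and high in all 3 passaged lines. By probe set 1449283_a_at, the one of its 2 probe sets with the higher mean, the log2 signal was 3.01, 3.92 and 3.29 on the NMuMG arrays and 3.30, 3.14 and 3.68 on the E1KD arrays. It was 8.58, 7.83 and 7.51 on the M1P arrays, 7.82, 8.04 and 7.78 on the L1P arrays and 7.90, 7.49 and 7.61 on the L2P arrays. The arrays formed 2 sets that did not overlap: the lowest of the 9 passaged arrays lay 3.57 log2 units, or 11.8-fold, above the highest of the 6 arrays of unpassaged lines. The means of the unpassaged lines were 3.41 ± 0.47 for NMuMG and 3.37 ± 0.28 for E1KD, and those of the passaged lines were 7.97 ± 0.55 for M1P, 7.88 ± 0.14 for L1P and 7.66 ± 0.21 for L2P (SD, n = 3).

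**Figure D1:**
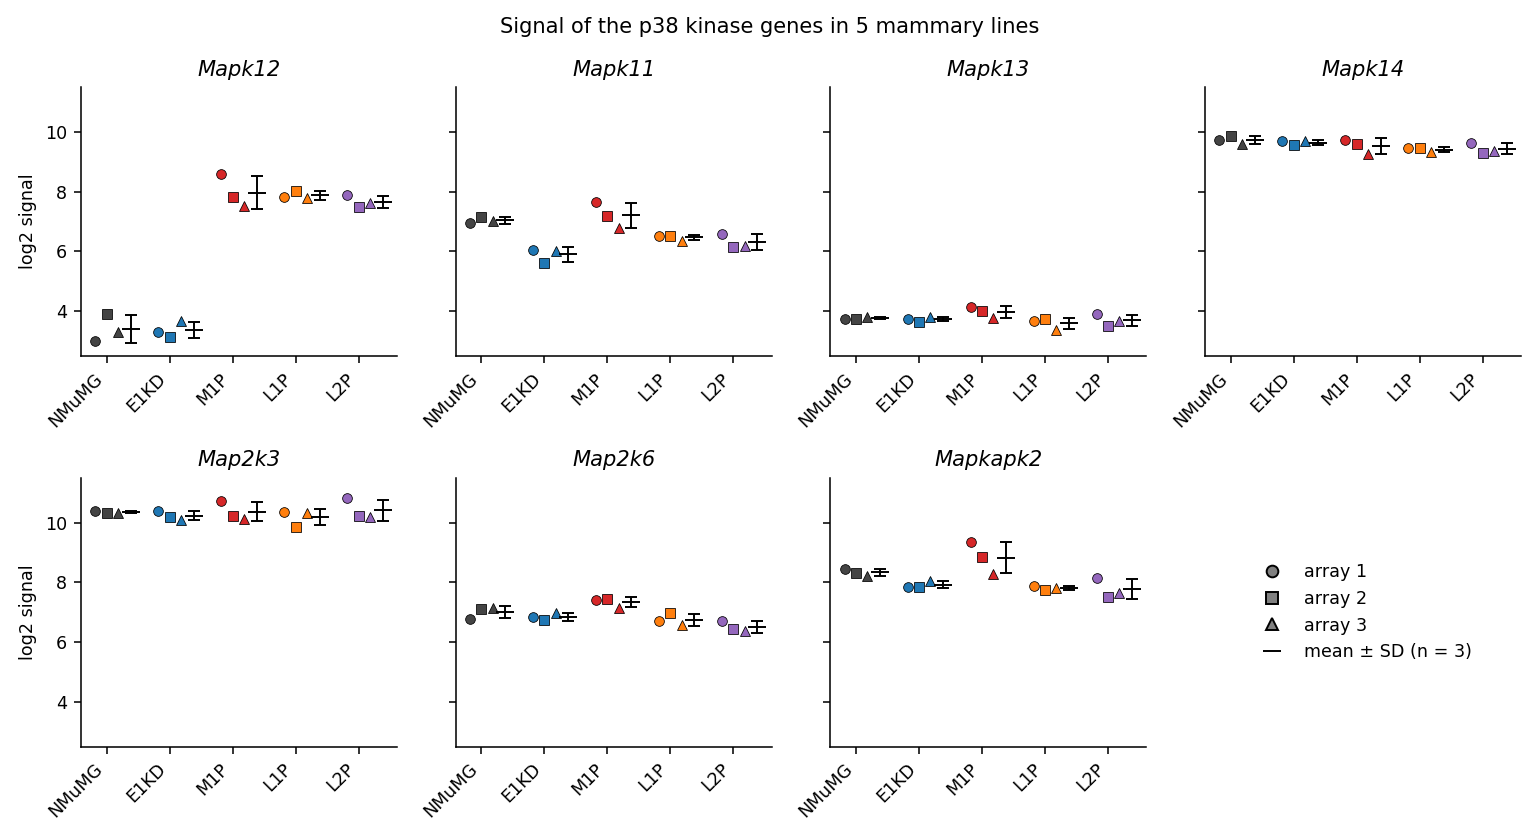
Log2 signal of the 7 p38 pathway genes in each line, 1 panel per gene with a shared vertical axis; symbols are the 3 arrays and bars are the mean ± SD. Mapk12 sits at 3.01 to 3.92 in NMuMG and E1KD and at 7.49 to 8.58 in M1P, L1P and L2P, whereas the other 6 genes span at most 2.05 log2 units over the 15 arrays.

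Against E1KD the difference in Mapk12 was 4.60 in M1P (24.3-fold), 4.51 in L1P (22.8-fold) and 4.29 in L2P (19.6-fold), each with a standard error of 0.27. These comparisons share the E1KD arrays. Against NMuMG the passaged lines were 23.7-, 22.2- and 19.1-fold higher in the same order. E1KD differed from NMuMG by -0.04 with a 95% interval of -0.63 to 0.56. The passaged lines lay close together: L1P differed from M1P by -0.09 (-0.68 to 0.50) and L2P from L1P by -0.22 (-0.81 to 0.37), and in both pairs the arrays overlapped. In order of mean log2 signal the lines ran M1P, L1P, L2P, NMuMG and E1KD, and the step from L2P to NMuMG was the only one larger than the spread of the arrays. Ranked by difference, Mapk12 was gene 6 of 18193 for M1P against E1KD, gene 6 for L1P and gene 7 for L2P. Without M1P arrays 1 and 2 the M1P difference was 4.13, and L1P differed from M1P by 0.38.

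The 2 probe sets of Mapk12 gave differences of unlike size. Probe set 1447823_x_at, whose suffix marks probes that may also match other transcripts, read 4.03, 4.27 and 4.41 in NMuMG and 3.99, 4.39 and 4.20 in E1KD. It read 5.40, 5.00 and 4.86 in M1P, 4.79, 5.07 and 4.51 in L1P and 4.96, 4.40 and 4.65 in L2P. All 9 passaged arrays were above all 3 E1KD arrays, but the lowest of them was 0.01 below the highest NMuMG array. The differences from E1KD were 0.89 in M1P, 0.59 in L1P and 0.48 in L2P, each with a standard error of 0.20. Averaging both probe sets gave 2.75, 2.55 and 2.38, so the direction was shared and the fold of about 20 rests on 1 probe set.

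**Figure D2:**
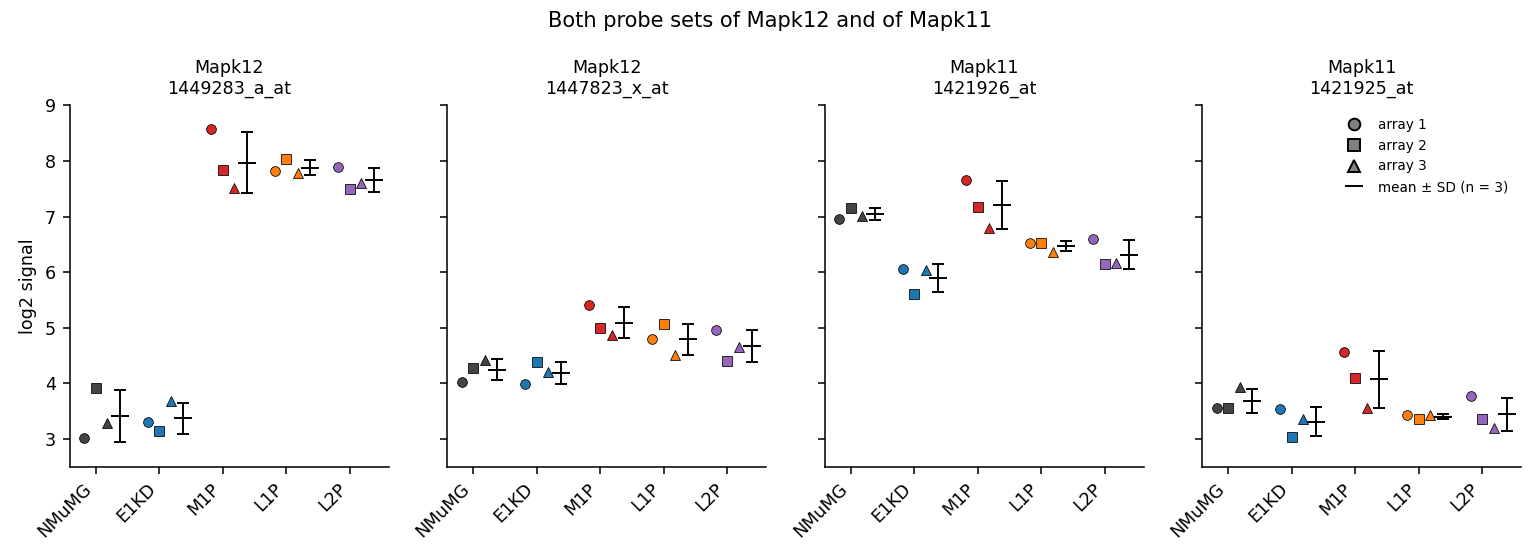
Log2 signal on each array for both probe sets of Mapk12 and both of Mapk11, with the mean ± SD of each line. The separation of passaged from unpassaged lines is 3.57 log2 units for 1449283_a_at, and the same arrays overlap by 0.01 for 1447823_x_at.

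Mapk11, the p38 beta gene that lies next to Mapk12, was lowest in E1KD. Its log2 signal by probe set 1421926_at was 6.95, 7.16 and 7.01 in NMuMG and 6.06, 5.61 and 6.03 in E1KD. It was 7.66, 7.18 and 6.79 in M1P, 6.53, 6.52 and 6.36 in L1P and 6.60, 6.15 and 6.17 in L2P. Every E1KD array was below every array of the other 4 lines. Mapk11 fell 2.20-fold from NMuMG to E1KD (-1.14 ± 0.20 SE, adjusted p = 0.00276, limma), and the adjusted p ran from 1.85e-05 to 0.037 over 16 alternatives. From E1KD to M1P it rose by 1.31 ± 0.20 (2.48-fold, adjusted p = 0.00187). That call was lost with only the 2 compared lines in the model (adjusted p = 0.0983) and with array quality weights (0.0914). Without M1P arrays 1 and 2 the difference was 0.89 (adjusted p = 0.0405). The lung lines were higher than E1KD on all arrays without passing the test, L1P by 0.57 with a 95% interval of 0.13 to 1.01 (adjusted p = 0.256) and L2P by 0.40 with an interval of -0.03 to 0.84 (adjusted p = 0.509). With only L1P and E1KD in the model the L1P difference was still 0.57, near the threshold (adjusted p = 0.051). With array quality weights it passed (0.52, adjusted p = 0.00691). From M1P to L1P Mapk11 fell by 0.74 ± 0.20 (1.67-fold, adjusted p = 0.0168), and this call was lost without M1P array 1 (-0.52, adjusted p = 0.0631) or L1P array 3 (-0.69, 0.0653). The means ran from M1P (7.21) and NMuMG (7.04), whose arrays overlapped, to L1P (6.47) and L2P (6.31), whose arrays also overlapped, and E1KD (5.90).

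The other probe set of Mapk11, 1421925_at, read 3.03 to 4.57 over the 15 arrays. It was also higher in M1P than in E1KD (0.76, adjusted p = 0.0364 over all probe sets). Its difference between E1KD and NMuMG, -0.37, did not pass (adjusted p = 0.419), so the call of a fall from NMuMG rests on 1421926_at.

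Mapk14, which encodes p38 alpha, the widely expressed isoform, passed in none of the 6 comparisons by its main probe set. By probe set 1416703_at its log2 signal was 9.74, 9.86 and 9.59 in NMuMG, 9.69, 9.57 and 9.70 in E1KD, 9.74, 9.60 and 9.25 in M1P, 9.47, 9.45 and 9.32 in L1P and 9.65, 9.31 and 9.35 in L2P. The largest gap between the 5 line means was that between NMuMG, 9.73, and L1P, 9.41. Of the 6 comparisons, the largest difference was -0.24 for L1P against E1KD, with an interval of -0.54 to 0.07 (adjusted p = 0.712), although those arrays did not overlap. With array quality weights Mapk14 fell in L2P against E1KD (-0.32, adjusted p = 0.0143). The other 5 probe sets lay between 2.89 and 6.71. Among them 1442364_at fell in M1P against E1KD (-0.62, adjusted p = 0.0391) and 1426104_at fell in L1P against M1P (-0.56, adjusted p = 0.0246).

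Mapk13, which encodes p38 delta, had low signals in every line and passed in 1 comparison. Its 1 probe set, 1448871_at, read 3.75, 3.73 and 3.79 in NMuMG, 3.75, 3.65 and 3.79 in E1KD, 4.14, 4.02 and 3.76 in M1P, 3.67, 3.73 and 3.37 in L1P and 3.90, 3.52 and 3.67 in L2P. Only M1P arrays 1 and 2 exceeded 4, and no detection calls were used to tell a low signal from none. Between M1P and L1P, whose arrays did not overlap, Mapk13 fell by 0.39 ± 0.14 (1.31-fold, adjusted p = 0.0408). It passed in 6 of 15 alternatives and was lost under quantile normalization (adjusted p = 0.0736) and when arrays were centred on their medians (0.0621). It was also lost without M1P array 1 (0.144), M1P array 2 (0.0812), L1P array 1 (0.0619) or L1P array 3 (0.164).

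Map2k3, which encodes MKK3, passed in no comparison. By probe set 1451714_a_at the 15 arrays lay between 9.87 and 10.81, with line means of 10.35 ± 0.04 for NMuMG, 10.23 ± 0.15 for E1KD, 10.36 ± 0.32 for M1P, 10.18 ± 0.27 for L1P and 10.41 ± 0.34 for L2P (SD, n = 3). The arrays overlapped in all 6 comparisons. The widest interval bound was 0.66, for L2P against L1P (0.23, adjusted p = 1). Its other probe set, 1425456_a_at, lay between 7.59 and 8.74 and passed in no comparison either.

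Map2k6, which encodes MKK6, was highest in M1P and lowest in L2P. The log2 signal was 6.77, 7.12 and 7.13 in NMuMG, 6.83, 6.73 and 6.96 in E1KD, 7.40, 7.46 and 7.15 in M1P, 6.71, 6.98 and 6.58 in L1P and 6.72, 6.45 and 6.36 in L2P. All M1P arrays were above all arrays of the other 4 lines, if only just for array 3, and those of the other lines overlapped except between E1KD and L2P and between NMuMG and L2P. Map2k6 rose by 0.50 ± 0.15 from E1KD to M1P (1.41-fold, adjusted p = 0.0323) and fell by 0.58 ± 0.15 from M1P to L1P (1.5-fold, adjusted p = 0.0141). The rise passed in 7 of 16 alternatives. It was lost without E1KD array 1 (adjusted p = 0.0676), 2 (0.117) or 3 (0.0532) and without M1P array 1 (0.0929) or 2 (0.0726). The fall was lost without L1P array 3 (0.065), and both were lost without M1P arrays 1 and 2, at 0.31 (adjusted p = 0.439) and -0.40 (0.268). In L2P against E1KD the difference was -0.33 with an interval of -0.66 to 0.00 (adjusted p = 0.428).

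Mapkapk2, which encodes MK2, the best-known kinase substrate of p38 alpha, was also highest in M1P. Its log2 signal was 8.45, 8.33 and 8.23 in NMuMG, 7.85, 7.84 and 8.06 in E1KD, 9.35, 8.84 and 8.29 in M1P, 7.88, 7.76 and 7.82 in L1P and 8.15, 7.50 and 7.66 in L2P. The M1P arrays covered more than 1 log2 unit, and the lowest of them, array 3, lay within the NMuMG range. Mapkapk2 rose by 0.91 ± 0.23 from E1KD to M1P (1.88-fold, adjusted p = 0.0158) and fell by 1.00 ± 0.23 from M1P to L1P (2.01-fold, adjusted p = 0.0079). The rise was lost without E1KD array 2 (adjusted p = 0.0652). Without M1P arrays 1 and 2 the differences were 0.37 (adjusted p = 0.363) and -0.47 (0.207). From NMuMG to E1KD the difference was -0.42 (adjusted p = 0.318), and it passed with only these lines in the model (0.0418) and with array quality weights (0.0379).

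**Figure D3:**
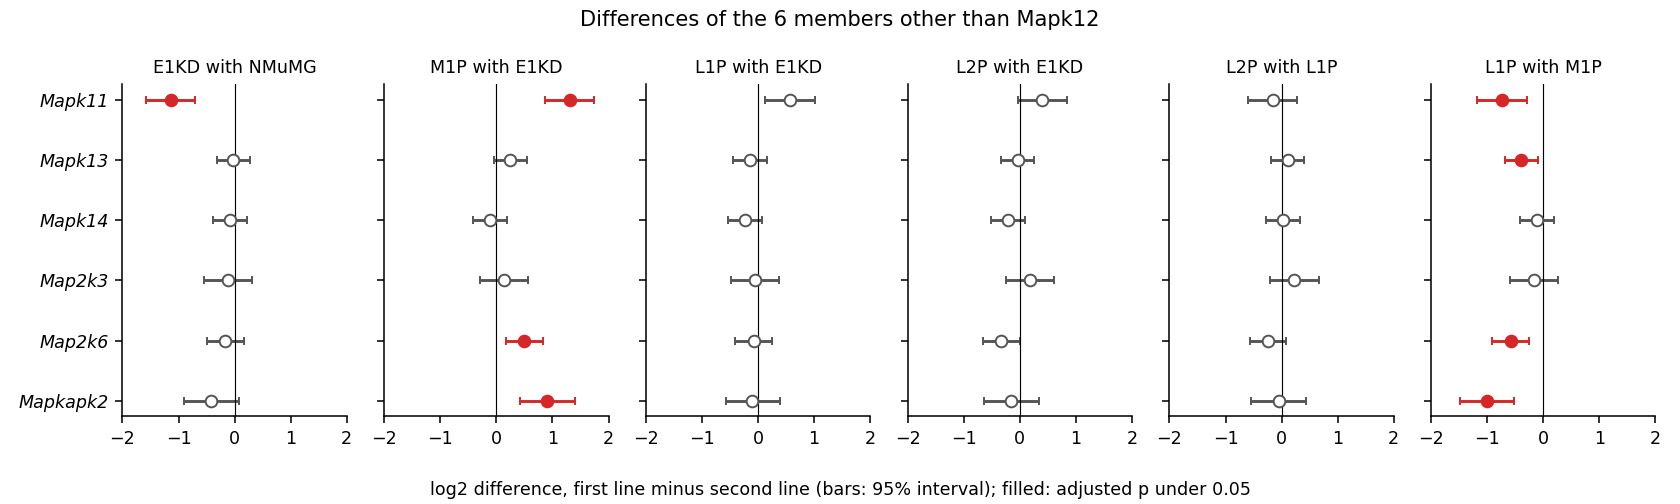
Log2 difference (horizontal axis) of the 6 genes other than Mapk12 in each of the 6 comparisons, with the 95% interval as a bar; filled points have an adjusted p under 0.05. Filled points are limited to Mapk11 in E1KD with NMuMG, to 3 genes in M1P with E1KD and to 4 genes in L1P with M1P.

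The comparison of E1KD with NMuMG asks what differs in mammary cells with hnRNP E1 silenced. Of the 6 genes tested, 1 fell, Mapk11, and 0 rose, and all 6 differences were below 0, with a median of -0.15. Most genes were lower in E1KD, 11095 of 18193. Of all genes, 9.49% passed, 3.00% as rises and 6.49% as falls, with a median difference of -0.07, and 1 call among 6 genes is near that background. Of their 13 probe sets 1 fell, against 7.78% of all probe sets called.

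The 3 comparisons with E1KD that follow are the ones in which Mapk12 was seen to be high, so the counts are given as a description. In M1P 3 of the 6 genes rose, Mapk11, Map2k6 and Mapkapk2, and 0 fell. The background there was wide: 27.6% of all genes passed, 17.7% as rises and 9.86% as falls, and the median difference of all genes was 0.20 against 0.37 for the 6. By probe set 4 of 13 rose and 1 fell, against 23.5% called. In a model of these lines alone 0 of the 6 genes passed, and so did 67 of all genes in place of 5015.

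In L1P against E1KD 0 of the 6 genes passed by limma, and 1, Mapk11, had an unadjusted p under 0.05. In L2P against E1KD 0 passed and 0 had an unadjusted p under 0.05. Map2k6 was at that limit, with 0.05 after rounding and 0.0494 in the fit over all probe sets. The shares over all genes were 2.48% in L1P (1.19% rises, 1.29% falls) and 3.78% in L2P (2.14% rises, 1.64% falls). Of the 13 probe sets 0 were called in either, against 1.73% and 2.66% of all probe sets. The lung lines held a Mapk12 signal 22.8- and 19.6-fold above E1KD while the differences of the other 6 genes lay between -0.33 and 0.57. With array quality weights 1 of the 6 passed in L1P and 3 in L2P, Mapk14, Map2k6 (-0.46, adjusted p = 0.00947) and Mapkapk2 (-0.37, 0.0335), all 3 lower in L2P. Calls were more frequent throughout with these weights: 2155 of 18193 genes passed in L1P and 3360 in L2P, in place of 452 and 687.

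L2P was set against L1P to follow the further passage through lung. None of the 6 genes passed by limma, 0 had an unadjusted p under 0.05, and their differences lay between -0.24 for Map2k6 and 0.23 for Map2k3. This was the quietest comparison, with 0.143% of all genes called (0.0934% rises, 0.0495% falls) and 0.0887% of probe sets, none of which was among the 13.

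The comparison of L1P with M1P sets a lung line against a mammary tumour line. Of the 6 genes 4 fell, Mapk11, Mapk13, Map2k6 and Mapkapk2, and 0 rose. Their median was -0.49, against -0.25 for all genes. Of all genes 39.5% passed, 13.6% as rises and 25.9% as falls. By probe set 6 of 13 fell, against 35.1% called. Without M1P arrays 1 and 2, or with only L1P and M1P in the model, 0 of the 6 passed, and without L1P array 3 only Mapkapk2 did.

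The wider pathway was followed with a list of 71 genes, written with earlier results of these data known, of which 65 were measured. Between NMuMG and E1KD 3 rose and 5 fell, 8 of 65 where 9.49% of all genes passed. Gadd45b, a stress-induced activator of the MAP3 kinase MEKK4, fell by 1.29 ± 0.21 (adjusted p = 0.00166), and Map3k11, the mixed-lineage kinase MLK3, fell by 0.78 ± 0.19 (0.0192). Phosphatases moved in both directions: Dusp2 (1.24, adjusted p = 0.00216) and Dusp1 (0.74, 0.0468) rose, while Ptprr (-2.11, 0.000513) and Dusp10 (-0.63, 0.0308) fell. Mapkapk3, which encodes MK3, the closest relative of MK2, rose by 1.5 ± 0.29 (0.00482), and the cytokine gene Csf2 fell by 0.97 ± 0.15 (0.00121). Gadd45b, Dusp2, Ptprr, Mapkapk3 and Csf2 passed in every alternative run. Leaving out 1 array ended the call of Map3k11 for 4 of the 6 arrays, with adjusted p up to 0.0754. It ended that of Dusp1 for 5, with adjusted p up to 0.152, and that of Dusp10 for 5, with adjusted p up to 0.146. Over all genes 1727 passed in this comparison, 3439 with only these lines in the model and 4771 with array quality weights. The count of 8 was 18 with only these lines in the model, 24 with array quality weights, 18 without M1P arrays 1 and 2, and 5 without NMuMG array 2, E1KD array 2 or E1KD array 3.

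Against E1KD 2 of the 65 genes passed in L1P, where 2.48% of all genes did, and 5 in L2P, where 3.78% did. With array quality weights 2155 of all genes passed in L1P and 3360 in L2P, in place of 452 and 687. In a model of L1P and E1KD alone 1195 of all genes passed. The L1P count was 0 or 1 on omitting any 1 of its 6 arrays, 4 with a minimum mean signal of 5, 6 without M1P arrays 1 and 2, 7 in a model of these lines alone and 9 with array quality weights. The L2P count was 2 without E1KD array 3 or L2P array 2 and 3 without E1KD array 2, L2P array 1 or L2P array 3. It was 9 without M1P arrays 1 and 2 and 18 with array quality weights. In L1P 1 rose and 1 fell. Eef2k, the elongation factor 2 kinase that p38 delta can phosphorylate, rose by 0.87 ± 0.20 (adjusted p = 0.0366), and Gadd45b fell by 0.91 ± 0.21 (0.039). Both calls were lost on leaving out any 1 of the 6 arrays, with adjusted p of 0.0506 to 0.167 for Eef2k and 0.0562 to 0.176 for Gadd45b. In L2P 3 rose and 2 fell. Eef2k rose by 1.02 ± 0.20 (adjusted p = 0.00982) and passed in all 16 alternatives. Cxcl2, a neutrophil chemokine whose message MK2 stabilises, rose by 1.91 ± 0.13 (1.13e-06) from a mean signal of 2.27 to 4.18, both low and read without detection calls, so the size of the rise is uncertain. It was also the 1 gene of the list that differed between L2P and L1P, by 2.06 ± 0.13 (2.42e-06). Map3k6 (1.00, adjusted p = 0.0347), Gadd45b (-1.01, 0.0154) and Ptprr (-1.25, 0.0341) passed in 10, 12 and 12 of 16 alternatives. Leaving out 1 array gave adjusted p of up to 0.146 for Map3k6, 0.0805 for Gadd45b and 0.169 for Ptprr. Eef2k was higher in M1P too, by 1.39 ± 0.20 (0.0012), or 1.05 (0.0396) without M1P arrays 1 and 2, so it was above E1KD in all 3 passaged lines, which share that control.

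In M1P against E1KD 12 of the 65 genes rose and 15 fell, where 17.7% of all genes rose and 9.86% fell. Rises included the MAP3 kinases Map3k6 (1.14, adjusted p = 0.00832) and Map3k11 (1.01, 0.00511) and the kinase Mapkapk3 (1.13, 0.0182). Among other p38 substrates Zfp36 (0.97, 0.0483) and Mapt (0.65, 0.0246) rose. Among transcripts regulated through p38 and MK2, Ier3 (0.68, 0.0304) and Il1b (0.41, 0.0447) rose. In that order they passed in 7 of 16, 8 of 15, 10 of 16 and 7 of 15 alternatives. Without M1P arrays 1 and 2 they were at 0.18, 0.55, 0.79 and 0.22. Falls included those of the MAP3 kinase Taok1 (-3.42, 0.0109), the scaffold Spag9 (-2.58, 0.0281), the transcription factors Creb1 (-2.64, 0.0333) and Atf2 (-2.41, 0.0251), the collagenase Mmp13 (-2.94, 0.0117) and the prostaglandin synthase Ptgs2 (-2.24, 0.0271). Leaving out E1KD array 2 ended the calls of Mapkapk3 and of these 6 falls, with adjusted p of 0.0553 to 0.121. Leaving out M1P array 1 ended those of Mapkapk3 (0.79, adjusted p = 0.06), Spag9 (-1.51, 0.0851), Creb1 (-1.70, 0.135), Atf2 (-1.54, 0.0856) and Ptgs2 (-1.35, 0.086). Without M1P arrays 1 and 2 none of these 6 falls passed, and the differences were -1.5 for Taok1, -1.11 for Spag9, -0.58 for Creb1, -0.75 for Atf2, -1.41 for Mmp13 and -0.75 for Ptgs2 (adjusted p from 0.308 to 0.734). The rises did not pass there either, at 1.04 for Map3k6 (0.0874), 0.63 for Map3k11 (0.0855) and 0.65 for Mapkapk3 (0.27). Spag9, Creb1, Atf2 and Ptgs2 were also lost without E1KD array 3, Creb1 and Ptgs2 without E1KD array 1 and Creb1 without M1P array 2. The count of 27 was 0 with only the 2 lines in the model and 0 with array quality weights. Omitting E1KD array 2 gave 4, E1KD array 3 gave 13, M1P array 1 gave 11, M1P array 3 gave 43 and M1P arrays 1 and 2 together gave 3. In L1P against M1P 18 rose and 14 fell, where 13.6% of all genes rose and 25.9% fell. The count of 32 was 0 with only the 2 lines in the model, 1 with array quality weights, 15 without M1P array 1, 19 without L1P array 2, 8 without L1P array 3 and 3 without M1P arrays 1 and 2. Taok1 (3.80, adjusted p = 0.0048) and Mmp13 (3.62, 0.00339) were the largest rises there among the genes named. They were at 1.88 (adjusted p = 0.175) and 2.09 (0.109) without M1P arrays 1 and 2.

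The other MAP kinases and their MAP2 kinases, which carry the ERK and JNK branches, gave a comparison family of 11 measured genes of 14 listed. None of them passed in E1KD against NMuMG, L1P against E1KD, L2P against E1KD or L2P against L1P by limma. Of all genes 9.49%, 2.48%, 3.78% and 0.143% passed there in the same order, so few calls among 11 genes are near that background. In M1P against E1KD 2 fell, Nlk (-1.32, adjusted p = 0.00358) and Mapk8, which encodes JNK1 (-0.86, 0.0299), where 9.86% of all genes fell. In L1P against M1P 4 rose and 2 fell, where 13.6% of all genes rose and 25.9% fell. The call of Mapk8 was lost without E1KD array 2 (0.118), E1KD array 3 (0.0596), M1P array 1 (0.0939) or M1P array 2 (0.0698). On omitting M1P arrays 1 and 2 Mapk8 was at -0.50 (adjusted p = 0.462), and Nlk still passed at -1.16 (0.00244). In L1P against M1P the largest rises of this family were Mapk6 (1.76) and Nlk (1.61), and the falls were Map2k2 (-0.74) and Map2k5 (-0.65). Without M1P arrays 1 and 2 these differences were 0.32, 1.45, -0.47 and -0.07 in the same order. The median differences of this family from E1KD were -0.03 in M1P, 0.06 in L1P and 0.10 in L2P, beside 0.20, -0.03 and 0.00 for all genes.

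The genes whose signals followed that of Mapk12 most closely over the 15 arrays were Crip1, As3mt, Cd1d1, Ggt7 and Kcnab2, with Pearson correlations of 0.985, 0.974, 0.966, 0.964 and 0.959. The arrays fall into a low and a high set, so these values mostly reflect that split and are given as a description. Crip1, which encodes a small LIM-domain protein, was at 5.65 in NMuMG and 5.31 in E1KD and at 10.99, 11.64 and 11.75 in M1P, L1P and L2P. As3mt, an arsenic methyltransferase gene, had 2.68 and 2.80 against 3.92, 3.93 and 3.85. For all 5 genes the lowest passaged array was above the highest unpassaged array. As they were picked for following Mapk12 on these same arrays, this separation is no further evidence. None of the other p38 pathway genes was among them: the correlation with Mapk12 was 0.247 for Mapk11, 0.10 for Map2k3, 0.097 for Mapk13, 0.09 for Mapkapk2, -0.009 for Map2k6 and -0.539 for Mapk14.

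The genes around Mapk12 were read in chromosomal order. The 5 measured genes on one side are 1810021B22Rik, Trabd, Selenoo, Tubgcp6 and Hdac10, and those on the other, beyond Mapk11, are Plxnb2, Dennd6b, Ppp6r2, Sbf1 and Adm2. In the lung lines none of these 10 neighbours passed against E1KD, where only 2.48% of all genes passed in L1P and 3.78% in L2P. Their differences lay between -0.29 and 0.23 in L1P and between -0.68 and 0.08 in L2P, where Mapk12 differed by 4.51 and 4.29. In M1P 6 of the 10 rose, with a median of 0.57 and a range of 0.30 to 1.11, where 17.7% of all genes rose and their median was 0.20. Omitting E1KD array 1 gave 2, E1KD array 2 gave 0, E1KD array 3 gave 1, M1P array 1 gave 0 and M1P arrays 1 and 2 together gave 0. From M1P to L1P 7 of the 10 fell, where 25.9% of all genes did, a count that was 2 on omitting M1P array 1, 2 on omitting L1P array 3 and 0 on omitting M1P arrays 1 and 2. With array quality weights 6 neighbours were called in L2P against E1KD, where 3360 of 18193 genes were called in place of 687. Between NMuMG and E1KD, where Mapk11 and 6.49% of all genes fell, 1 neighbour fell, the histone deacetylase gene Hdac10 (-0.88, adjusted p = 0.0111). The count was 0 without NMuMG array 2. It was 2 in other runs, such as those with only these 2 lines, array quality weights or the replicate block. Around Mapk14 and Mapk13 on chromosome 17, 0 of 10 neighbours passed in L1P or L2P and 1, Kctd20, rose in M1P (0.70, adjusted p = 0.00761), a count of 0 without M1P arrays 1 and 2.

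**Figure D4:**
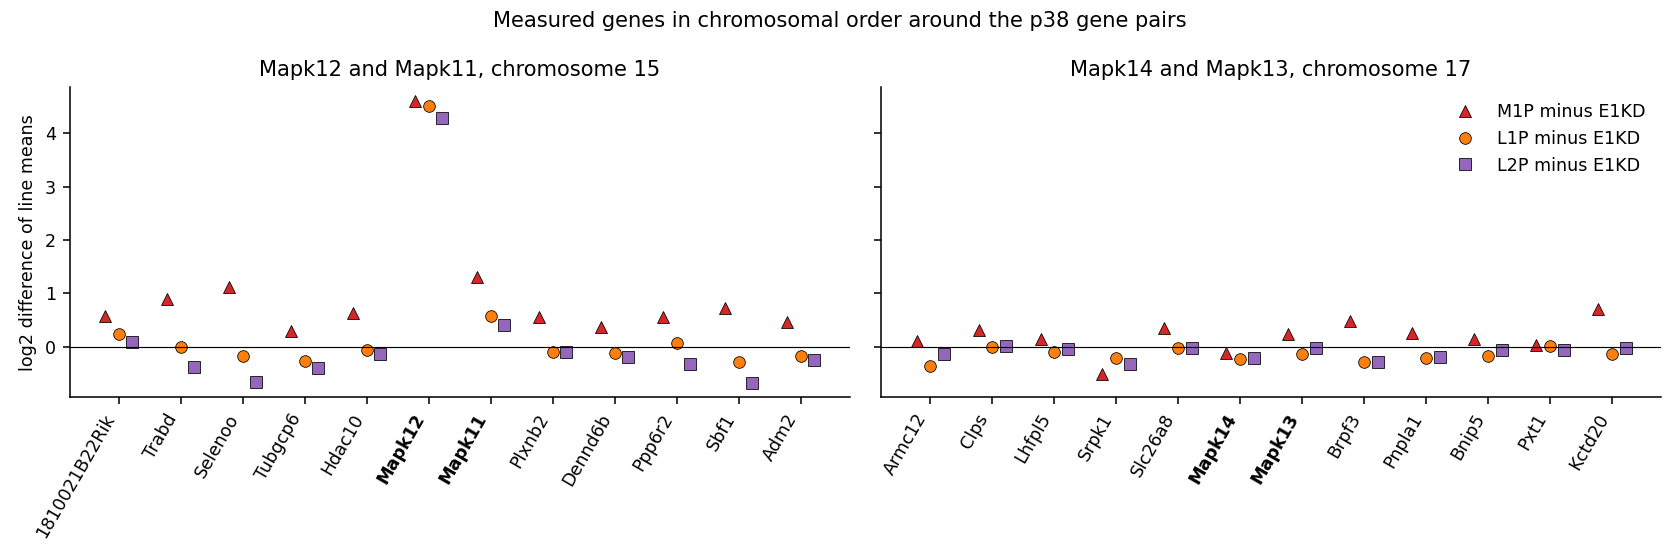
Log2 difference of each passaged line from E1KD for the measured genes around Mapk12 and Mapk11 (left) and around Mapk14 and Mapk13 (right), in chromosomal order and not to distance. Mapk12 stands at 4.29 to 4.60 in all 3 lines, and its 10 neighbours lie between -0.68 and 1.11.

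Because Mapk12 is known as a muscle message, markers of skeletal muscle were read on the same arrays. The summed linear signal of 11 muscle markers was 176 to 198 in NMuMG, 166 to 196 in E1KD, 226 to 277 in M1P, 175 to 193 in L1P and 171 to 200 in L2P. In M1P all 11 were higher than in E1KD and 2 rose, Mylpf (0.85, adjusted p = 0.0197) and Acta1 (0.50, 0.0413), with the median at 0.28 against 0.20 for all genes. In M1P 12738 of 18193 genes were higher than in E1KD, and 17.7% of all genes rose. The marker calls in M1P, here and below, were not rechecked without M1P arrays 1 and 2. In L1P 3 of 11 and in L2P 5 of 11 were higher, where 8077 and 8896 of 18193 genes were. None of the 11 passed in either, where 2.48% and 3.78% of all genes did. The mean Mapk12 signal was 7.88 in L1P and 7.66 in L2P, where the summed muscle signal was 171 to 200 against 166 to 198 in the unpassaged lines. Summed signals of 8 fibroblast markers were 89 to 92 in E1KD, 105 to 212 in M1P, 88 to 90 in L1P and 94 to 104 in L2P, with 1 called in M1P, Col1a2 (1.09, adjusted p = 0.0464). Those of 9 macrophage and leukocyte markers were 1879 to 2277 in NMuMG and 1117 to 1495, 1460 to 2419, 829 to 1292 and 921 to 1523 in the other lines in the same order, a sum carried mostly by Cd14, with 1 called in M1P, Cd52 (0.60, adjusted p = 0.0343). Within that list Ptprc, the pan-leukocyte marker, was at 2.24 to 2.72 on all arrays, whereas Cd68 had a mean of 5.01 in E1KD beside 5.37 (M1P), 5.65 (L1P) and 6.18 (L2P), and Lyz2 had 4.19 beside 4.53, 5.03 and 5.20. None of the 9 passed against E1KD in L1P or L2P, and their part in the Mapk12 signal was not tested. Those of 7 endothelial markers were 58 to 74, 72 to 83, 60 to 70 and 60 to 77, with 1 called in M1P, Kdr (0.57, 0.0382). The higher marker signals in M1P accompanied the rises of Mapk11, Map2k6 and Mapkapk2 there, and their part in those rises was not tested.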

How the data were processed

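RNA from 15 arrays was labelled from 100 ng per sample with a 3′ in vitro transcription kit, per the labels' protocols. The authors deposited log2 signals per probe set in 1 table; per the submitters' processing notes RMA, MAS5 and Affymetrix's Expression Console were involved, and which of these made the values and in which versions is not given in the sources used here. Of 45101 probe sets, 34945 had exactly 1 gene symbol in the platform annotation, updated by Entrez identifier (34741) or kept as given (204); 932 had several, 9160 none and 64 were controls. Where a gene had several probe sets, the one of highest mean stood for it, which left 18193 genes.

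Linear models in limma 3.58.1 (R 4.3.3) took the 15 arrays together and gave each line its own mean, with no pseudocount or filter. The 6 comparisons were adjusted by Benjamini and Hochberg over all genes, or over all probe sets where a probe set is named, with two-sided tests and a threshold of 0.05. The test was checked on simulated data. Mapk12 was not tested. The members and gene lists were chosen with earlier results of these data known. Named genes were the 7 members, the 5 genes most correlated with Mapk12, up to 2 of the largest passing rises and falls of each pathway list, and 5 measured neighbours on each side of both gene pairs. Genes of other MAP kinases and the cell type markers were counted the same way.

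The 95% intervals came from the same fit. The alternatives were quantile normalization, median centring, a minimum mean log2 signal of 5, other choices of probe set, only the 2 compared lines, a trended robust prior, array quality weights, the replicate number as a block, leaving out each array in turn and leaving out M1P arrays 1 and 2. Arrays carry no read depth, and their number, 3 per line, limits the precision. No pair of arrays of a line was identical.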

Additional observations from a re-analysis of the deposited data

Results flagged for a closer look

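The effect against E1KD differed between M1P and L1P for 4 genes, and the direct comparison of L1P with M1P by limma tested that difference. The difference, L1P minus M1P, was -0.74 for Mapk11, -0.39 for Mapk13, -0.58 for Map2k6 and -1.0 for Mapkapk2. For Mapk11 both lines were above E1KD, by 1.31 in M1P and 0.57 in L1P. For Map2k6 and Mapkapk2 M1P was above E1KD, by 0.50 and 0.91, and L1P was close to it, at -0.08 and -0.10. For Mapk13 neither line passed against E1KD, at 0.24 and -0.14. None of the 4 differences passed without M1P arrays 1 and 2, where they were -0.32, -0.18, -0.40 and -0.47, and the adjusted p was then 0.392, 0.586, 0.268 and 0.207. With 3 arrays per line, no single array was tested as an outlier.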

How the results depend on the processing

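Of 228 alternative values for the counts of members called and the Mapk12 differences, 194 kept their direction and stayed within the array spread or within 1.5 times the count. Part of these could not move, so the total is not a measure of stability. The minimum signal, the 2-line model, the trended prior and the replicate block leave a Mapk12 difference of line means unchanged. A count of 0 that stayed 0 was also scored as kept. With only the 2 compared lines in the model, the count of the 6 genes went from 1 to 2 in E1KD against NMuMG, from 3 to 0 in M1P against E1KD and from 4 to 0 in L1P against M1P. With array quality weights, whose estimation stopped before full convergence, it was 2 in E1KD against NMuMG and 0, 1 and 3 in M1P, L1P and L2P against E1KD, and 0 in L1P against M1P. Without M1P arrays 1 and 2 it was 1 for M1P with E1KD and 0 for L1P with M1P. Leaving out 1 array gave 1 (without E1KD array 2) to 3 for M1P with E1KD and 1 (without L1P array 3) to 4 for L1P with M1P. Of the 13 probe sets, 5 were called in M1P with E1KD: 0 with only the 2 lines, 3 with a trended robust prior, 0 without M1P arrays 1 and 2 and 1 to 5 on leaving out 1 array. The 6 called in L1P with M1P became 3 with a minimum mean signal of 5, 0 with only the 2 lines, 0 without M1P arrays 1 and 2 and 1 to 8 on leaving out 1 array. Array quality weights called 1 probe set in L1P with E1KD and 3 in L2P with E1KD, against 0 in each. In M1P with E1KD and L1P with M1P they kept the probe set counts within 1.5 times 5 and 6, whereas the gene counts went to 0. The Mapk12 difference from E1KD was 2.75, 2.55 and 2.38 in M1P, L1P and L2P as the mean of its probe sets, and 4.13 in M1P without M1P arrays 1 and 2, where L1P minus M1P was 0.38. Mapt, called in M1P with E1KD at 0.65, was at -0.29 (adjusted p = 0.495) with its probe set of largest variance. The replicate block left the counts of the 6 genes at 1, 3, 0, 0, 0 and 4 in the order of the comparisons, moved the 6 probe sets of L1P with M1P to 7 and the 2 pathway genes of L1P with E1KD to 6. The block raised the calls over all genes from 5015 to 6911 in M1P with E1KD and from 7186 to 8722 in L1P with M1P. Array quality weights raised the calls over all genes from 1727 to 4771 in E1KD with NMuMG. In L1P and L2P with E1KD those weights raised them from 452 to 2155 and from 687 to 3360. In M1P with E1KD and L1P with M1P they lowered them from 5015 to 164 and from 7186 to 434. Pairing by replicate number was not taken as given, because not every pair met the limit: 15 of 30 same-numbered pairs of deviations correlated above 0.1 (r from -0.50 to 0.76), and 9 of 15 arrays correlated best with their own number. The arrays numbered 1 of E1KD, M1P, L1P and L2P did deviate together (r from 0.374 to 0.755 in all 6 pairs). So did those numbered 3 of NMuMG, M1P, L1P and L2P (0.279 to 0.691 in all 6 pairs). Some arrays of unlike number did too, such as E1KD array 2 with M1P array 3 (0.656). These are hints from the data and not the design. The cause of these changes was not tested. Low signals were not separated from background, which limits Mapk13 and Cxcl2 in all lines and Mapk12 in the unpassaged ones. The same limit holds for other low signals, such as those of Il1b, Csf2, As3mt and many of the muscle, fibroblast and endothelial markers.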

Other observations

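Against NMuMG, a comparison the design did not test, Mapk11 lay 0.17 higher in M1P and 0.57 and 0.73 lower in L1P and L2P. Mapkapk2 lay 0.49 higher in M1P and 0.52 and 0.57 lower in L1P and L2P. Map2k6 lay 0.33 higher in M1P and 0.25 and 0.50 lower in L1P and L2P, whereas Map2k3 was within 0.17 of NMuMG in all 3 passaged lines.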
